A study of Homo sapiens and Mus musculus with 160 samples.

Results

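The mRNAs described here code for the nuclear pore complex and for the karyopherins, the receptors that carry cargo through it. They were chosen by gene symbol alone, ignoring case: the NUP genes, the numbered RANBP, KPNA, KPNB, TNPO and IPO genes, the exportins named XPO1, XPO4, XPO6, XPO7 and XPOT, and TPR, RAE1, SEH1L, POM121, NDC1 and AAAS. The rule found 59 of 18165 human genes and 56 of 17985 mouse genes. KPNA5, NUP42 and NUP58 were listed for the human line only; the mouse tables carry older symbols for NUP42 and NUP58, which the rule does not match. RANBP9 and RANBP10, scaffolds of a ubiquitin ligase complex, and NUP62CL and NUP210L, relatives of pore genes, match by name and are kept and named as such.

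Half-lives came from subcellular TimeLapse-seq, in which cells build 4-thiouridine, a uridine analog, into new RNA and a chemical step then turns the analog into T-to-C mismatches in the reads. The 2 lines were K562, a human chronic myelogenous leukaemia line, and NIH-3T3, a mouse fibroblast line, both untreated and labelled for 0, 15, 30, 60 and 120 min, with RNA taken from whole cells and from 4 fractions: nuclei, chromatin, polysomes and cytoplasm. Each line had 2 tables, and each table was fitted by the authors to 25 samples. Cells carrying shRNAs were not analysed here. Of 12 erythroid and leukaemia markers, 12 had fitted half-lives in K562 and 0 in NIH-3T3. Of 11 fibroblast markers, 4 had them in K562 (COL1A2, FN1, VIM and SPARC) and 11 in NIH-3T3.

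The pore is a channel through the nuclear envelope. A Y-shaped complex and an inner ring form its scaffold, membrane nucleoporins anchor it, nucleoporins rich in phenylalanine-glycine (FG) repeats fill the channel, a basket points into the nucleus and filaments point into the cytoplasm. Importins bind cargo in the cytoplasm and let it go in the nucleus when the GTPase Ran binds them, exportins leave the nucleus with cargo and Ran, and most mRNAs leave by another receptor, NXF1.

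All values below are the authors' half-lives in minutes, as posterior modes for replicate 1 and replicate 2 of a line in that order (n = 2 tables). The chromatin and nuclear half-lives are times of residence there, the export half-life is that of RNA already released from chromatin, the cytoplasmic half-life ends with decay, the polysome loading half-life is the wait before translation, and the whole-cell half-life is that of the transcript as a whole. All 6 half-lives were available in both tables for 56 members in K562 and for 51 in NIH-3T3. KPNA7, RANBP17 and NUP210L lacked them in K562. Kpna7, Ranbp17, Nup210 and Nup62cl had none in NIH-3T3, and Nup210l lacked polysome loading in 1 table. The number of reads behind a value is unknown here, so precision is given by the authors' 95% credible intervals, which were at most 4-fold wide on chromatin, in the nucleus and in the whole cell for every member with values in both tables.

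In K562 the members' mRNAs had longer half-lives than the rest in the nucleus and in the whole cell, and shorter waits before polysomes. The median over members of the whole-cell half-life was 360 and 335 min, against 210 and 200 min over all other genes. For the nucleus it was 110 and 120 min, against 73 and 85 min. For chromatin it was 55 and 60.5 min, against 47 and 53 min. For export it was 76.5 and 89 min, against 38 and 46 min. The cytoplasmic medians were 110 and 105 min for members, against 86 and 76 min. Loading onto polysomes ran the other way, with 2.6 and 6.25 min for members, against 7.5 and 14 min.

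NIH-3T3 members were again longer than other genes on chromatin, in the nucleus and in the whole cell, and shorter before polysomes. Export and the cytoplasm did not follow K562. Nuclear half-lives had medians of 100 and 110 min over members, against 77 and 77 min over other genes. On chromatin the medians were 85 and 110 min, against 53 and 70 min. Cytoplasmic half-lives did not stand apart, with 34 and 34 min against 37 and 35 min. The export medians were 41.5 and 19 min, against 41 and 27 min, so that members lay clearly below other genes in replicate 2 only. The whole-cell medians were 140 and 135 min, against 110 and 110 min. Polysome loading had 6.5 and 6.4 min for members, against 10 and 9.8 min.

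Counted gene by gene, 42 of 56 members in K562 had a whole-cell half-life above the median of the other genes in both tables, where 43.1% of all genes did, and 31 of 52 in NIH-3T3, where 43.0% did. Polysome loading was below that median in both tables for 43 of 56 members in K562 (35.4% of all genes) and for 34 of 51 in NIH-3T3 (34.9% of all genes). It was above it for 4 members in K562 (34.0% of all genes) and for 7 in NIH-3T3 (36.0% of all genes). Most polysome values lie under 15 min, the shortest labelling time, and their intervals were at most 4-fold wide for 14.3% and 41.1% of the members in the K562 tables.

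**Figure D1:**
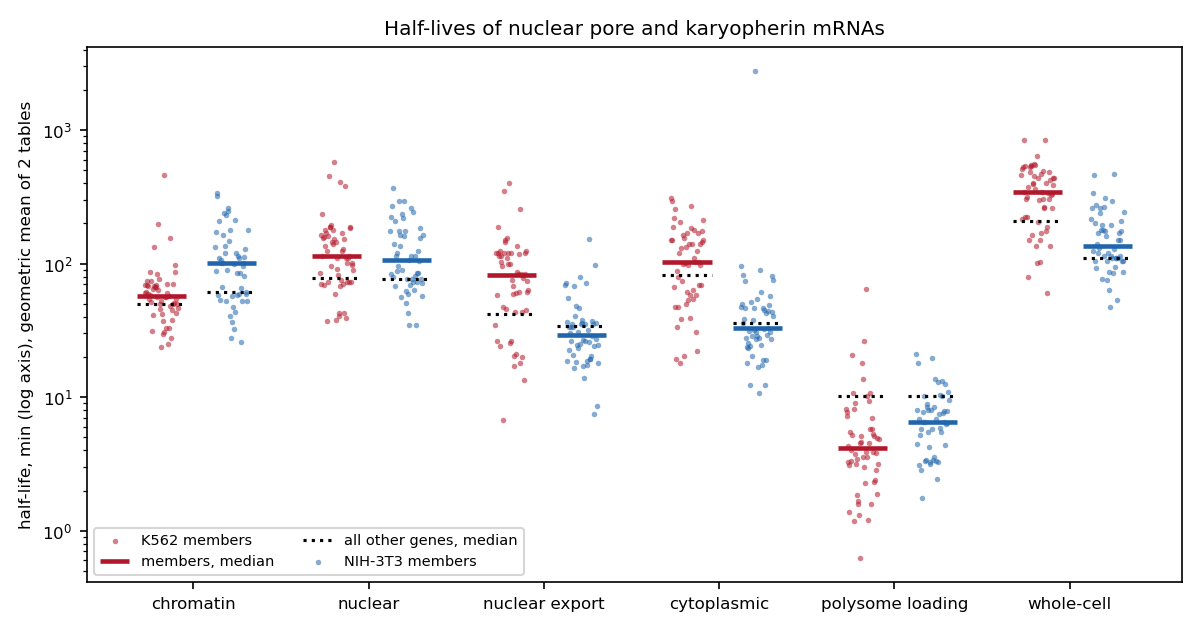
Half-lives in minutes (log axis) of the members at 6 steps, each point the geometric mean of the 2 tables of a line, with K562 left of NIH-3T3 in each pair. Coloured bars are the members' medians and dotted bars those of all other genes; the K562 whole-cell bar stands at 344 min, above 208 min for other genes, and the NIH-3T3 point at 2755 min in the cytoplasm is Nup210l, whose values reach the upper bound of the fit.

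The scaffold was among the most stable groups in K562. The Y complex, the outer ring of the pore, had a median whole-cell half-life of 490 min over its 7 members in K562 and 150 min in NIH-3T3. Averaged on the log2 scale over the 4 tables, NUP133, which tethers the complex to the membrane, had the longest of them, though NUP37 and NUP107 were longer in K562 and Nup85 in NIH-3T3. NUP133 had 610 and 480 min in K562 and 170 and 220 min in NIH-3T3. NUP85, in the short arm of the Y, had the shortest in K562 and the longest in NIH-3T3, at 170 and 170 min in K562 and 190 and 200 min in NIH-3T3. With IPO9 it is 1 of 2 tested members with a negative whole-cell difference, neither of them called, and it joined a short nuclear half-life in K562 of 68 and 68 min to a long cytoplasmic one of 270 and 270 min. NUP37, a small subunit that binds NUP160, showed the widest gap between lines, with 600 and 690 min in K562 and 66 and 86 min in NIH-3T3. NUP43, a subunit of the short arm, had 540 and 360 min in K562 and 120 and 120 min in NIH-3T3.

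The inner ring, which lines the channel, had long chromatin half-lives in NIH-3T3. In NIH-3T3 its 5 mRNAs had a median chromatin half-life of 231 min, the highest of the groups with more than 2 members, and 64.0 min in K562. NUP205, one of its largest scaffold proteins, had 63 and 65 min on chromatin in K562, against 220 and 310 min in NIH-3T3. NUP188, a close relative of NUP205, had 83 and 85 min, against 210 and 290 min. NUP93, which links the ring to the FG proteins, had 52 and 61 min, against 190 and 240 min. NUP35, a membrane-binding subunit, was the exception in the group, with 47 and 44 min in K562 and 37 and 45 min in NIH-3T3. Averaged over the 4 tables, the whole-cell extremes of the ring were NUP188, with 610 and 510 min in K562 and 250 and 280 min in NIH-3T3, and NUP35, with 130 and 140 min in K562 and 100 and 110 min in NIH-3T3. In NIH-3T3 alone Nup205, with 320 and 300 min, and Nup93, with 310 and 280 min, were longer than Nup188.

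The median whole-cell half-life was 212 min in K562 and 87.0 min in NIH-3T3 over the channel and FG group, and 205 min in K562 and 77.0 min in NIH-3T3 over the basket, against 344 min and 135 min over all members; TPR in NIH-3T3 lay above that. NUP62, the core of the central channel, had whole-cell half-lives of 96 and 110 min in K562 and 43 and 52 min in NIH-3T3. NUP98, which lines the channel and binds mRNA export factors, had 300 and 310 min in K562 and 110 and 110 min in NIH-3T3. In the basket, TPR, its filament protein, had 350 and 310 min in K562 and 210 and 210 min in NIH-3T3. NUP153, which holds the basket to the pore, had 160 and 170 min in K562 and 77 and 77 min in NIH-3T3. NUP50, a cofactor of import that sits at the basket, had nuclear half-lives of 83 and 100 min in K562 and 42 and 43 min in NIH-3T3.

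On the cytoplasmic face, RANBP2 and AAAS stood at opposite ends. RANBP2, the large filament protein and a SUMO ligase (GRCh38 chromosome 2, 108719481 to 108785811, plus strand), had nuclear half-lives of 370 and 390 min and cytoplasmic ones of 31 and 31 min in K562. In NIH-3T3 the corresponding values were 120 and 110 min in the nucleus and 14 and 11 min in the cytoplasm. AAAS, which NDC1 anchors at the pore (GRCh38 chromosome 12, 53307456 to 53324864, minus strand), had 81 and 89 min in the nucleus and 310 and 310 min in the cytoplasm in K562. Its NIH-3T3 mRNA had the reverse order, with 160 and 190 min in the nucleus and 93 and 100 min in the cytoplasm. AAAS also had the longest whole-cell half-life of this face, at 450 and 470 min in K562 and 180 and 260 min in NIH-3T3. RAE1, an mRNA export factor, had the shortest average over the 4 tables. It had 270 and 250 min in K562 and 140 and 120 min in NIH-3T3. Ranbp2 and Nup88 were shorter in NIH-3T3, and NUP42, listed for K562 only, was shorter in K562. RANBP2 has a family of near-identical human copies, and reads that fit several of them could be placed on any; how the authors counted such reads is not given in the sources used here.

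Among the membrane nucleoporins, NUP210 and NDC1 had the longest nuclear and among the shortest cytoplasmic half-lives of the members in K562. NUP210 (GRCh38 chromosome 3, 13316235 to 13420309, minus strand), a single-pass membrane protein of the pore, had 540 and 620 min in the nucleus and 19 and 22 min in the cytoplasm in K562; it had no value in NIH-3T3. NDC1 (GRCh38 chromosome 1, 53765460 to 53838860, minus strand), which spans the envelope several times, had 390 and 520 min in the nucleus and 32 and 10 min in the cytoplasm in K562. Its mouse mRNA had 300 and 290 min in the nucleus and 14 and 11 min in the cytoplasm, so the order held in both lines. NDC1 had whole-cell half-lives of 550 and 510 min in K562 and 250 and 270 min in NIH-3T3. POM121 had 270 and 260 min in K562 and 85 and 85 min in NIH-3T3; a near-identical human gene, POM121C, could share its reads.

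Among the importin alpha adaptors, which bind the classical import signal, the median cytoplasmic half-life was 47.4 min in K562 and 23.9 min in NIH-3T3, against 103 min and 32.8 min over all members. KPNA2 had 21 and 18 min in K562 and 19 and 17 min in NIH-3T3; it has processed pseudogenes that could share its reads. KPNA3 had 45 and 25 min in K562 and 26 and 22 min in NIH-3T3, and the longest whole-cell half-lives of the group averaged over the 4 tables, at 320 and 310 min in K562, where KPNA4 was longer, and 170 and 170 min in NIH-3T3. KPNA6 had the shortest average over the 4 tables, at 150 and 150 min in K562 and 130 and 130 min in NIH-3T3. Kpna1 and Kpna4 were shorter in NIH-3T3, and KPNA5, which has no mouse values, was shorter in K562. KPNA1 had nuclear half-lives of 160 and 200 min in K562 and 68 and 69 min in NIH-3T3. KPNA5, listed for K562 only, had 32 and 31 min on chromatin and 6.8 and 6.8 min for export.

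The importin beta family had whole-cell half-lives with a wide range, from 60.3 to 837 min in K562 and from 53.9 to 465 min in NIH-3T3. IPO5, which imports ribosomal proteins and histones, had whole-cell half-lives of 910 and 770 min in K562 and 480 and 450 min in NIH-3T3. RANBP6, a close relative of IPO5 encoded by a gene of 1 exon (GRCh38 chromosome 9, 6011043 to 6015625, minus strand), had 70 and 52 min in K562 and 50 and 58 min in NIH-3T3. KPNB1, the main partner of the alpha adaptors, had 520 and 460 min in K562 and 240 and 240 min in NIH-3T3. IPO9, an importer of histones and actin, had 65 and 73 min in the nucleus and 270 and 240 min in the cytoplasm in K562. In NIH-3T3 it had 210 and 210 min in the nucleus and 50 and 44 min in the cytoplasm. IPO4, another importer of histones, had 65 and 74 min on chromatin in K562 and 240 and 470 min in NIH-3T3. TNPO2, a transportin that imports RNA-binding proteins, had the lowest export half-lives relative to chromatin in NIH-3T3, with 12 and 15 min against 72 and 70 min on chromatin in K562, and 20 and 2.8 min against 85 and 110 min on chromatin in NIH-3T3.

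The exportins and the Ran-binding proteins completed the set. XPOT, the exporter of tRNA, had the longest exportin mRNA over the 4 tables, with whole-cell half-lives of 450 and 430 min in K562 and 250 and 240 min in NIH-3T3. XPO4 had the shortest average, at 280 and 240 min in K562 and 110 and 100 min in NIH-3T3, where Xpo6 was shorter. XPO6, the exporter of actin, had 450 and 420 min in K562 and 86 and 88 min in NIH-3T3, and XPO7 had 380 and 400 min in K562 and 100 and 110 min in NIH-3T3. RANBP1, which helps to strip Ran from karyopherins, had the longest whole-cell values beside IPO5, at 800 and 880 min in K562 and 450 and 490 min in NIH-3T3. RANBP10, a member by name, had 160 and 190 min in K562 and 98 and 91 min in NIH-3T3.

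Further members are given by their whole-cell half-lives. NUP160 and SEH1L, both of the Y complex, had whole-cell half-lives of 430 and 380 min and of 500 and 480 min in K562, against 120 and 110 min and 160 and 140 min in NIH-3T3. NUP54, a partner of NUP62 in the channel, had 310 and 290 min in K562, against 86 and 88 min in NIH-3T3. NUP88, a partner of NUP214 on the cytoplasmic face, had 370 and 320 min in K562, against 110 and 120 min in NIH-3T3. In each of these 4 mRNAs both K562 values lay above both NIH-3T3 values. Over all genes, 51.6% had the whole-cell 95% intervals of both K562 tables above those of both NIH-3T3 tables. KPNA4, an alpha adaptor, had 410 and 340 min in K562, against 120 and 120 min in NIH-3T3. IPO7, which carries ribosomal proteins and histone H1, had 360 and 330 min in K562, against 110 and 100 min in NIH-3T3. IPO8, its closest relative, had 630 and 460 min in K562, against 200 and 200 min in NIH-3T3. IPO11 had 520 and 510 min in K562 and 280 and 240 min in NIH-3T3, and IPO13, which both imports and exports, had 200 and 230 min in K562 and 130 and 120 min in NIH-3T3. TNPO1, the transportin of hnRNP proteins, had 320 and 290 min in K562, against 170 and 170 min in NIH-3T3. TNPO3, the importer of SR splicing factors, had 410 and 440 min in K562, against 150 and 150 min in NIH-3T3. RANBP3, a cofactor of XPO1, had 200 and 180 min in K562, against 110 and 110 min in NIH-3T3. RANBP9, a member by name, had 360 and 320 min in K562, against 110 and 110 min in NIH-3T3. Both K562 values lay above both NIH-3T3 values for all 13 of these mRNAs, a shift that most genes shared.

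**Figure D2:**
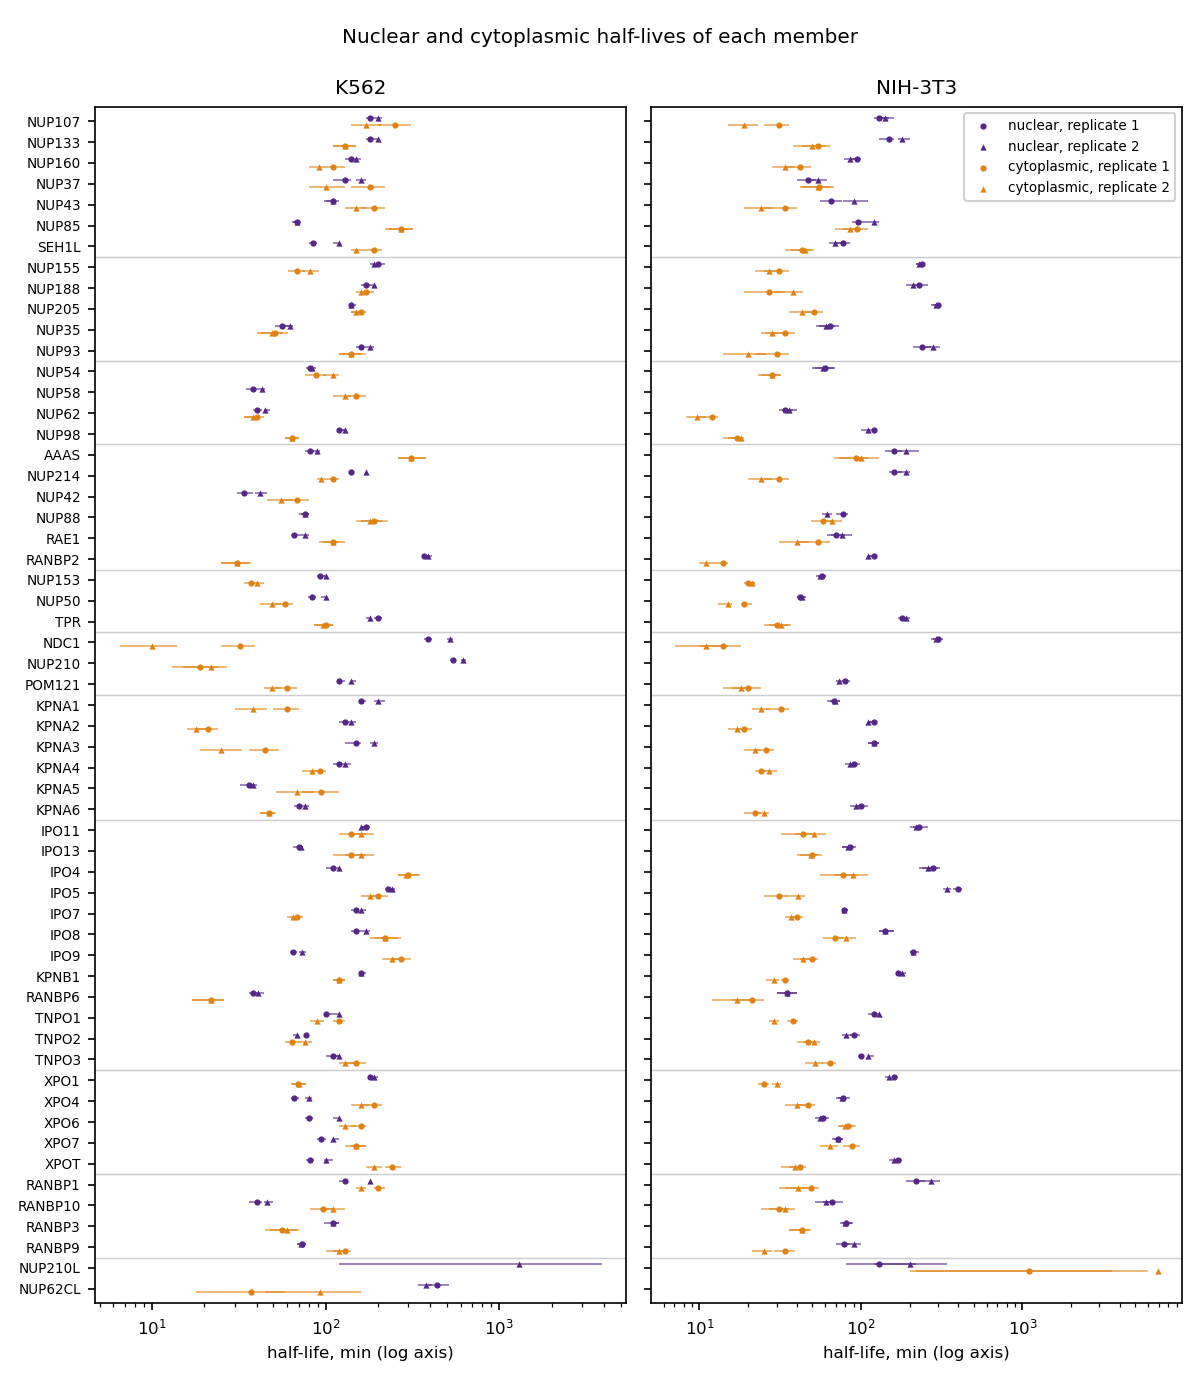
Nuclear (purple) and cytoplasmic (orange) half-lives in minutes (log axis) of each member in K562 (left) and NIH-3T3 (right), under human symbols, as posterior modes of replicate 1 (circle) and replicate 2 (triangle) with the authors' 95% credible intervals as lines. Grey lines part the structural groups; NDC1, NUP210 and RANBP2 have the widest gap to the nuclear side in K562, while AAAS, IPO9 and NUP85 have it to the cytoplasmic side.

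The first comparison within a line set the nuclear half-life against the cytoplasmic one. A step counted as longer when the 95% intervals did not overlap, in the same direction, in both tables. No test of its own stands behind these counts. Narrow intervals separate more easily, and members had them more often than other genes. In the cytoplasm of K562, intervals were at most 4-fold wide for 100% of members, against 83.5% and 82.2% of other genes. In K562, 22 of 56 members had the longer half-life in the nucleus, where 24.2% of all genes did, and 16 had it in the cytoplasm, where 26.4% did. In NIH-3T3, 45 of 52 had the longer half-life in the nucleus, where 51.8% of all genes did. Only Xpo6 had it in the cytoplasm (5.71% of all genes), with 58 and 56 min in the nucleus and 83 and 80 min in the cytoplasm. When the modes had to be at least 2-fold apart, 12 of 56 members in K562 had the longer half-life in the nucleus and 9 in the cytoplasm. These are 21.4% and 16.1% of members, near the 18.6% and 17.4% of all genes. In NIH-3T3, 32 of 52 members kept the nucleus as the longer step, where 41.5% of all genes did.

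The lines were then compared on the ratio itself, with limma on log2 ratios, 2 tables against 2. The labels do not say whether the tables of a line came from separate cultures, so p-values measure the spread between tables only, which may be technical. The nuclear over cytoplasmic ratio was lower in K562 for 31 of 51 members, where 38.4% of all genes were, and higher for 0, where 4.02% were (adjusted p under 0.05). Of the 10 members whose steps were apart in opposite orders, nuclear in NIH-3T3 and cytoplasmic in K562, all 10 were called: AAAS, IPO13, IPO4, IPO9, NUP43, RANBP10, RANBP9, SEH1L, XPO4 and XPOT. The share of all genes with such opposite orders was not counted. The 10 members were picked on the values that limma then tested, so their calls add no separate support. The median log2 difference of the ratio was -1.44 over members and -1.08 over all genes. With each table centred on its own median, 9 members were lower in K562 (14.5% of all genes) and 6 were higher (15.5%). Fits without 1 table keep a single table in 1 line, so they cannot decide whether these calls hold.

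The second comparison set residence on chromatin against export. In K562, 34 of 56 members took longer to be exported than to leave chromatin, where 19.8% of all genes did, and 11 had the opposite order, where 26.9% did. In NIH-3T3, 37 of 52 stayed longer on chromatin, where 29.8% of all genes did, and 0 had the opposite order (1.55% of all genes). NDC1 had the largest gap towards export in K562, with 110 and 160 min on chromatin and 310 and 390 min for export. IPO5 had 74 and 74 min on chromatin and 180 and 200 min for export, and RAE1 had 25 and 25 min on chromatin and 56 and 68 min for export. At the other end in K562, NUP62CL had 440 and 490 min on chromatin and 63 and 30 min for export. With modes at least 2-fold apart the K562 counts were 8 with export longer (8.86% of all genes) and 5 with chromatin longer (21.8%). The NIH-3T3 count with chromatin longer was 23 of 52 (19.8% of all genes).

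In NIH-3T3 the 2 tables gave different export values. Replicate 2 lay below replicate 1 by a median of 1.15 on the log2 scale over members and 0.54 over other genes, and the chromatin values of replicate 2 lay above those of replicate 1 by 0.45 in both sets. Export in KPNB1, for example, took 120 and 120 min in K562, and 25 and 11 min in NIH-3T3. Taken alone, replicate 1 gave 38 members with the longer step on chromatin (31.5% of all genes) and 3 with it at export (11.6%). Replicate 2 gave 49 (63.9% of all genes) and 0 (2.21%).

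Across the lines, the chromatin over export ratio was lower in K562 for 13 of 51 members, where 5.21% of all genes were, and higher for 0, where 1.92% were (limma, adjusted p under 0.05). The median log2 difference was -2.22 over members, against -0.66 over all genes. Opposite orders, export as the longer step in K562 and chromatin in NIH-3T3, were seen for 22 members, of which 13 were called. How many of all genes had these opposite orders was not counted, so the counts of 22 and 13 are not set apart from the rest. A negative difference was found for 49 of 51 members and for 6126 of 9135 genes. The 22 members were picked on the values that limma then tested, so their calls add no separate support. NUP155, an inner ring protein, differed by -4.40 ± 0.83 on the log2 scale (SE, adjusted p = 0.0148) and KPNB1 by -4.19 ± 0.81 (adjusted p = 0.0155). NUP155 had 70 and 68 min on chromatin and 160 and 150 min for export in K562, against 190 and 280 min on chromatin and 40 and 15 min for export in NIH-3T3. Centred tables left 15 members lower in K562 (6.95% of all genes) and 0 higher (11.3%). Whether these calls hold without 1 table cannot be decided, as a line then keeps 1 table only.

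**Figure D3:**
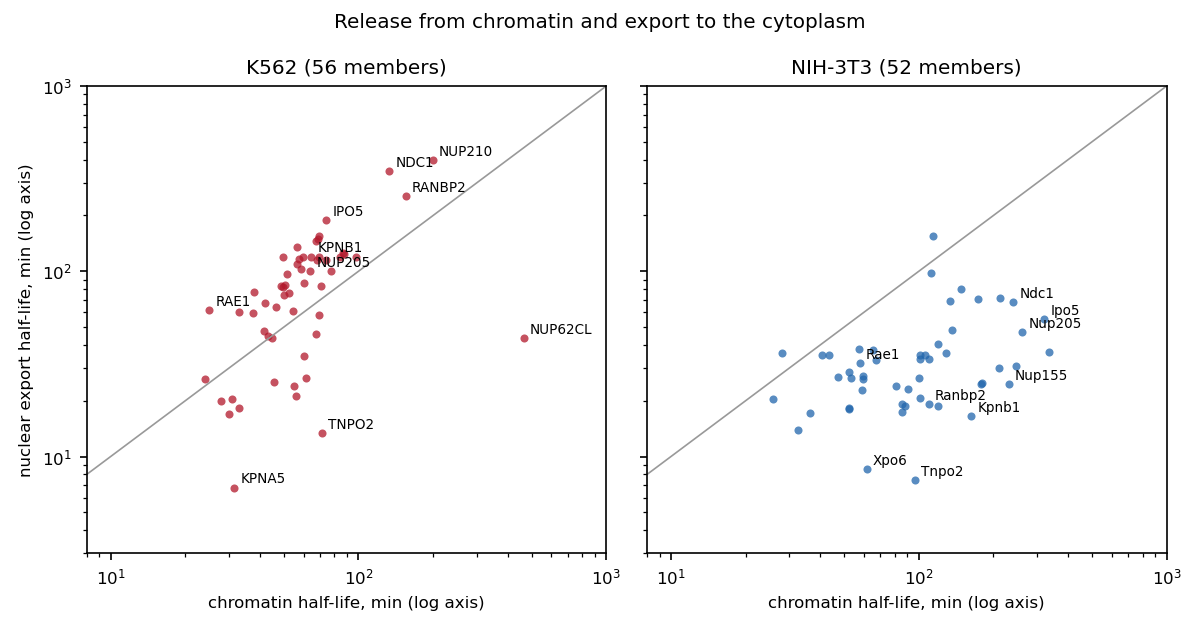
Export half-life against chromatin half-life in minutes (both log axes) in K562 (left) and NIH-3T3 (right), each point 1 member at the geometric mean of 2 tables, with the grey line marking equal values. Most K562 points lie above the line, NDC1, NUP210 and RANBP2 furthest up, and most NIH-3T3 points lie below it.

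Single half-lives were compared next, K562 minus NIH-3T3, for the 51 of 56 paired members with values in all 4 tables. Cytoplasmic half-lives were longer in K562 for 43 members, where 53.4% of all genes were, and shorter for 0, where 2.08% were (limma, adjusted p under 0.05). All 51 had a positive difference before the tables were centred, as did 7833 of 9087 genes. The 4 largest were those of NUP107, NUP43, NUP93 and IPO9. NUP107, a Y complex subunit, had 250 and 170 min in K562, against 31 and 19 min in NIH-3T3 (log2 difference 3.09 ± 0.37, adjusted p = 0.00767). NUP43 had 190 and 150 min, against 34 and 24 min (2.56 ± 0.28, adjusted p = 0.00729). NUP93 had 140 and 140 min, against 30 and 20 min (2.51 ± 0.27, adjusted p = 0.00729). KPNA2 was not called, at 21 and 18 min against 19 and 17 min.

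The shift was one of the whole table: over all genes the median log2 difference was 1.11, against 1.60 over members. Relative to each table's median, 6 members stayed longer in the cytoplasm of K562 (9.84% of all genes): IPO5, IPO9, NUP107, NUP43, NUP93 and XPOT. KPNA2 and RANBP6 were shorter there (14.0% of all genes), with a centred log2 difference of -1.11 for KPNA2. For the uncentred calls, fits without 1 table cannot decide whether they hold, as a line then keeps 1 table.

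Whole-cell half-lives showed the same table-wide shift. They were longer in K562 for 45 of 51 members, where 60.2% of all genes were, and shorter for 0, where 5.06% were, with medians of 1.09 over members and 0.84 over all genes. NUP37 differed most, by 3.09 ± 0.19 (adjusted p = 0.00330), followed by XPO6 with 2.32 ± 0.10, XPO7 with 1.89 ± 0.11 and NUP43 with 1.88 ± 0.24. Relative to each table's median, 18 members were longer in K562 (18.2% of all genes) and 6 were shorter (26.3%): IPO9, KPNA6, NUP35, NUP85, RANBP6 and TNPO2. Here too, fits without 1 table keep 1 table in a line and cannot decide whether the uncentred calls hold.

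On chromatin the direction was reversed. Half-lives were shorter in K562 for 18 of 51 members, where 28.6% of all genes were, and longer for 0, where 10.0% were. The medians were -0.69 over members and -0.35 over all genes. IPO4 (-2.28 ± 0.37, adjusted p = 9.58e-07), IPO5 (-2.11 ± 0.37), NUP205 (-2.03 ± 0.36) and IPO9 (-1.94 ± 0.37) differed most. IPO5 had 74 and 74 min on chromatin in K562, against 250 and 410 min in NIH-3T3. By group, 4 of 5 inner ring mRNAs and 6 of 12 of the importin beta family were shorter in K562, against 0 of 3 in the basket. With the tables centred, 22 members were shorter (26.8% of all genes) and 6 longer (25.8%); KPNA1, NUP153, NUP37, NUP50, RANBP2 and RANBP6 were the longer ones. NUP205 turned to 0.74 when posterior means replaced modes, because replicate 1 of K562 lists a mean of 2900 min outside its own interval of 61 to 65 min. Leaving out 1 table, with 1 table left in a line, cannot decide whether the uncentred calls hold.

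Nuclear half-lives split the members. They were longer in K562 for 11 of 51, where 19.9% of all genes were, and shorter for 10, where 20.0% were, close to the background in both directions. RANBP2 (1.73 ± 0.12, adjusted p = 0.0104), NUP37 (1.52 ± 0.17), KPNA1 (1.38 ± 0.16) and NUP50 led the longer ones. IPO9 (-1.61 ± 0.12, adjusted p = 0.0104), IPO4 (-1.23 ± 0.12), NUP205 (-1.08 ± 0.11) and AAAS (-1.04 ± 0.15) led the shorter ones. NUP37 had 130 and 160 min in K562, against 47 and 54 min in NIH-3T3. In the groups, 2 of 3 basket mRNAs and 2 of 5 importin alpha mRNAs were longer in K562, while 2 of 5 inner ring mRNAs and 4 of 12 of the importin beta family were shorter. With the tables centred, 16 members were longer (25.4% of all genes) and 10 shorter (24.5%). As above, fits without 1 table cannot decide whether these calls hold.

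Export half-lives were longer in K562 for 3 of 51 members, where 4.36% of all genes were, and shorter for 0, where 4.60% were. These were RANBP2 (3.72 ± 0.57, adjusted p = 0.0325), KPNB1 (2.86 ± 0.53, adjusted p = 0.0389) and NUP155 (2.66 ± 0.58, adjusted p = 0.0489). RANBP2 had 250 and 260 min in K562, against 31 and 12 min in NIH-3T3. A further 22 members had an unadjusted p under 0.05, which makes 25 in all, and 44 of 51 differences were positive. Over all genes, 3037 of 9135 had an unadjusted p under 0.05 and 5502 differences were positive. The members' median difference was 1.44 and that of all genes 0.33. With the tables centred, 17 members were longer (9.95% of all genes) and 1, AAAS, was shorter (15.3%). As for the other half-lives, fits without 1 table cannot decide whether these calls hold.

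A count that uses the authors' intervals and no test was set beside these. It depends on interval width, so shares over all genes are not a like comparison. Export intervals were at most 4-fold wide for 96.2% to 100% of members in a table, against 77.0% to 87.4% of other genes. The intervals of both K562 tables lay above those of both NIH-3T3 tables for 29 of 51 members in export (17.9% of all genes), for 45 in the cytoplasm (47.7%), for 45 in the whole cell (51.6%) and for 16 in the nucleus (21.4%). They lay below for 30 members on chromatin (31.3% of all genes), for 13 in the nucleus (22.4%) and for 0 in export (5.50%), cytoplasm (1.03%) and whole cell (3.16%). On chromatin 2 members lay above (10.3% of all genes), and at polysome loading 0 lay above (0.981%) and 1, IPO4, lay below (1.68%).

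Polysome loading gave 0 calls in either direction by limma, where 0.443% of all genes were higher and 0.395% lower. An unadjusted p under 0.05 was found for 5 of 51 members and for 933 of 8358 genes, a similar share. NUP214, an FG protein of the cytoplasmic face, had the shortest waits in K562, with 0.39 and 1 min there and 4.6 and 2.2 min in NIH-3T3. Replicate 2 of K562 lay above replicate 1 by a median of 1.31 on the log2 scale over members. The cytoplasmic half-life exceeded the polysome wait for 51 of 56 members in K562 (55.9% of all genes) and for 47 of 51 in NIH-3T3 (46.8% of all genes), with 0 in the opposite order in both lines (0.243% and 0.514% of all genes). The ratio of these steps gave 0 calls between lines over all 8358 genes. At an unadjusted p under 0.05 in limma were 22 of 51 members and 1754 of all genes.

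**Figure D4:**
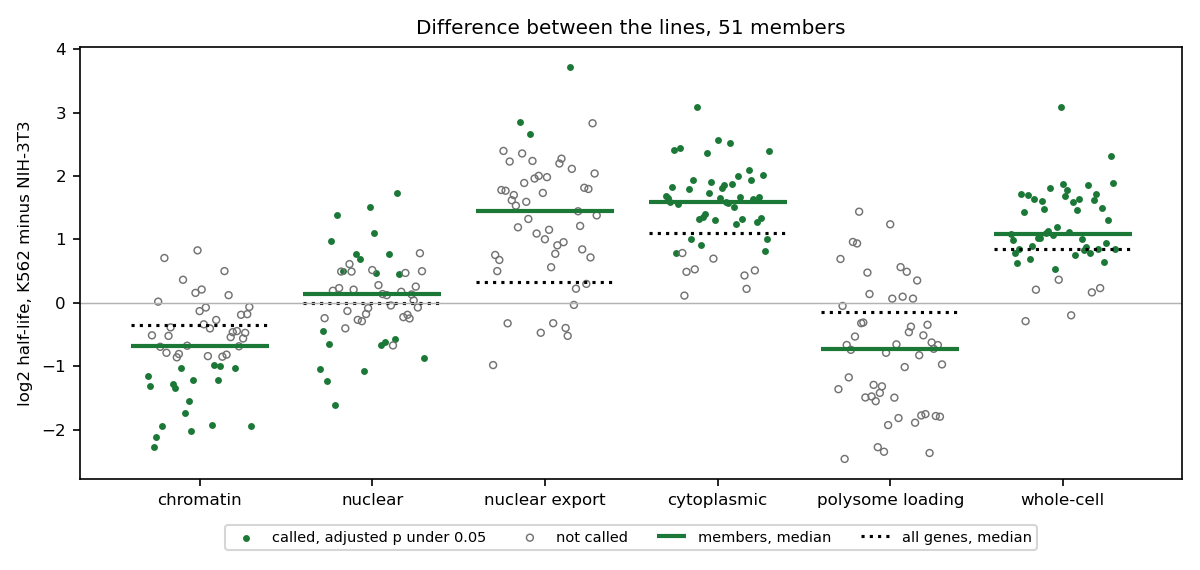
Log2 difference in half-life, K562 minus NIH-3T3, for 51 members at each of 6 steps; filled points passed limma's adjusted p under 0.05 and open points did not. Green bars are the members' medians and dotted bars those of all genes: -0.69 and -0.35 on chromatin, 1.44 and 0.33 for export, 1.60 and 1.11 in the cytoplasm.

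The authors' call of nuclear degradation was made for 1 of 52 assessed members in K562, XPO1 (3.25% of all assessed genes), and for 1 of 52 in NIH-3T3, Xpo6 (4.36%). XPO1, the receptor for proteins with leucine-rich export signals, had a degradation half-life of 5800 min (95% interval 2700 to 6900) and 6900 min (3300 to 6900), at or near the upper bound of the fit, with 140 and 140 min for export in the same model. Its Bayes factor for the model with degradation was 1.5e+07 and 1.7e+06 over 4 compartments and 3.1e-10 and 3.5e-10 over 3. Mouse Xpo6 had a degradation half-life of 80 min (66 to 96) and 96 min (80 to 120), with 5.9 and 2.3 min for export in that model. In the model without degradation its export half-lives were 18 and 4.1 min, against 42 and 89 min for human XPO6, which did not carry the call.

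Of 30 further genes of the Ran cycle, the pore or its surroundings that the symbol rule leaves out, 28 were listed for K562 and 29 for NIH-3T3, and 27 could be tested. In the whole cell 19 of 27 were longer in K562, where 60.2% of all genes were, and 0 shorter, where 5.06% were. In the cytoplasm 15 were longer (53.4% of all genes) and 0 shorter (2.08%), and on chromatin 3 were longer (10.0%) and 13 shorter (28.6%). The counts of longer mRNAs in the cytoplasm and on chromatin lay near those shares, and that of shorter ones on chromatin lay above. Their median log2 difference was 1.01 for export, against 1.44 over members and 0.33 over all genes. For the chromatin over export ratio it was -2.02, against -2.22 over members and -0.66 over all genes. In K562 their medians were 74.2 min for export and 4.68 min for polysome loading, against 82.6 and 4.17 min over members. Their median whole-cell half-life was 337 min in K562 and 140 min in NIH-3T3. RAN itself had 20 and 25 min on chromatin in K562, against 130 and 190 min in NIH-3T3, with the same whole-cell half-lives in both lines, 440 and 410 min. CSE1L, the exporter of importin alpha, had 960 and 800 min in K562, against 320 and 280 min in NIH-3T3. LBR, a receptor for lamin B in the inner membrane, had 400 and 410 min in the nucleus and 24 and 20 min in the cytoplasm in K562. Mouse Nupl1 and Nupl2, the older symbols of NUP58 and NUP42, had whole-cell half-lives of 130 and 120 min and of 58 and 58 min; human NUP58 and NUP42 had 160 and 140 min and 93 and 110 min in K562.

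Human gene structure was read from GENCODE 29 (GRCh38), in which all 59 members had a coding transcript. The members with half-lives are long, many-exon genes: the median was 21 exons over 56 members, against 9 over 11382 other genes, and the median coding length was 2680.5 bases, against 1368 bases. Spearman's rho of exon number with half-life in K562 across 56 members was 0.58 with chromatin, 0.51 with nuclear and 0.48 with export half-life, and -0.57 with polysome loading. Over other genes the same correlations with exon number were 0.37, 0.25, 0.12 and -0.05. Coding length gave 0.46, 0.34, 0.33 and -0.61 across members. These are descriptions across genes of 1 line, which share libraries and tables and are not replicates. RANBP6, with 1 exon, had 26 and 30 min on chromatin, and TPR, with 51, had 96 and 100 min. NUP37, with 10 exons, and RANBP1, with 6, had long whole-cell half-lives in K562, at 600 and 690 min for NUP37 and 800 and 880 min for RANBP1.

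**Figure D5:**
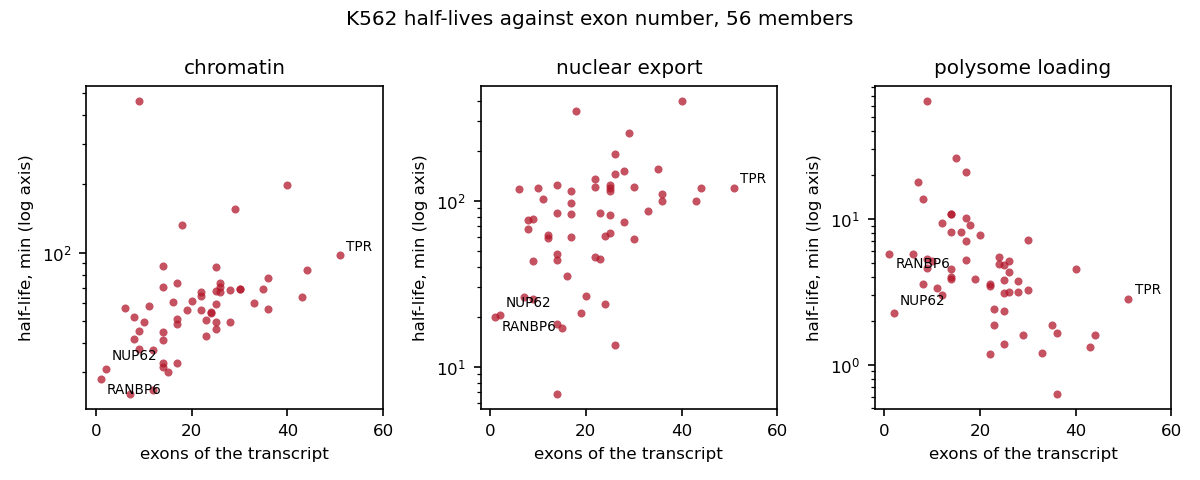
K562 half-lives in minutes (log axes) on chromatin, for export and for polysome loading against the number of exons of the GENCODE 29 transcript, each point 1 of 56 members at the geometric mean of 2 tables. Chromatin half-lives are longer in members with more exons (Spearman's rho 0.58) and polysome waits shorter (-0.57).

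A pair of short motifs were searched on the transcript strand of the 3′ untranslated regions of these transcripts, overlapping matches included: the octamer TGTANATA, which Pumilio proteins bind, and the AU-rich nonamer TTATTTATT. The octamer was found in 15 of 56 members (26.8%), against 26.1% of other genes, and the nonamer in 5 of 56 (8.93%), against 8.08%. The median cytoplasmic half-life in K562 was 66.5 min over the 15 members with the octamer, against 120 min over the 41 without it; over other genes it was 68.9 min with it, against 86.8 min without it. The 3 members with the shortest cytoplasmic half-lives in K562, NDC1, KPNA2 and NUP210, all held the octamer, a set picked after its values were seen, while RANBP6 and RANBP2, the next, did not. NUP85, with 270 and 270 min in the cytoplasm, held it too. The sites are shown because they go with the shortest and with long ones among these half-lives; the octamer is in capitals, letters are those of the transcript written as DNA, and positions are GRCh38.
KPNA2, first site, chr17:68046728-68046753, plus strand: agttccaacTGTACATAcatactgta
KPNA2, second site, chr17:68046807-68046832, plus strand: gcagcatccTGTAAATAaacattcaa
NDC1, chr1:53765549-53765574, minus strand: gtgtcatccTGTAAATAttcatgata
NUP210, chr3:13316274-13316299, minus strand: caacctggaTGTAAATAggagccttt
NUP85, chr17:75235704-75235729, plus strand: gtatggcaaTGTATATAgattttttt

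A match says only that these letters are present in the annotated transcript; binding was not measured here. NUP107, with 206 min in the K562 cytoplasm as the geometric mean of its tables, held 4 nonamers, 3 of them overlapping in 1 run.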

How the data were processed

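RNA of whole cells, nuclei, chromatin, polysomes and cytoplasm was sequenced after 4-thiouridine labelling. Reads were trimmed with cutadapt 2.5 and aligned with STAR 2.7.0a against the hg38 and mm10 builds, per the submitters' processing notes. The authors deposited 2 tables for each line, with half-lives in minutes (other units than counts), each a Bayesian posterior mean, mode and 95% credible interval, with Bayes factors and a call of nuclear degradation, per the file headers. Values have 2 significant digits and an upper bound of 6900 min. Of the value columns, 132 were used and 194 were not.

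The members, lists and tests were chosen with earlier results of these data known. From the posterior modes, log2 differences between lines were tested with limma 3.58.1 in R 4.3.3, 2 tables against 2, two-sided, with Benjamini-Hochberg adjustment over all genes paired by symbol (14100 symbols, fewer with values), called at adjusted p under 0.05. The procedure was tested on simulated data. Symbols listed more than once were left out of pairing. No expression level, count or depth is in these tables, so precision rests on the intervals and on 2 tables a line. Within a line, steps were compared by the authors' intervals. Named members are those with the 4 largest called differences in each direction per half-life, among values with intervals at most 4-fold wide, with the whole-cell extremes of each structural group, the up to 3 members with the largest step ratios in each direction, and the members that carry a degradation call. The rest are given by whole-cell half-life or by count; the 3′ sites were picked after their values were seen. Alternatives were the posterior mean, centring each table, interval width, the degradation call, a mean-spread trend, the replicate block, leaving out each table and leaving out members by name only. The count that uses the intervals of all 4 tables was added after the data were seen. Gene structure came from GENCODE 29. Python 3.11.15 and pandas 2.3.3 were used for tables. Same-numbered tables of the lines deviated together with r between -0.051 and 0.025, so their numbers were not taken to pair them.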

Additional observations from a re-analysis of the deposited data

Results flagged for a closer look

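For 23 results the order of steps differed between the lines and the difference of the ratio passed limma's threshold (adjusted p under 0.05, 2 tables against 2). The share of all genes that did both was not counted, so these results are not set apart from the rest of the tables. The order of steps and the tested ratio come from the same values, so the test adds no separate support. The log2 difference of the chromatin over export ratio, K562 minus NIH-3T3, was -3.89 for IPO5, -4.19 for KPNB1, -3.22 for NDC1, -2.70 for NUP107, -4.40 for NUP155, -2.91 for NUP160, -3.51 for NUP188, -3.22 for NUP214, -2.83 for NUP93, -3.18 for NUP98, -3.22 for RANBP2, -2.93 for RANBP3 and -3.32 for XPOT. All 13 had export as the longer step in K562 and chromatin in NIH-3T3. The median difference of this ratio over all genes was -0.66. The export values of the 2 NIH-3T3 tables lay a median of 1.15 apart on the log2 scale over members, and the part of that gap in these differences was not tested.

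The log2 difference of the nuclear over cytoplasmic ratio was -2.72 for AAAS, -1.84 for IPO13, -3.06 for IPO4, -4.05 for IPO9, -2.05 for NUP43, -2.23 for RANBP10, -2.32 for RANBP9, -1.47 for SEH1L, -2.08 for XPO4 and -3.27 for XPOT. These 10 had the cytoplasm as the longer step in K562 and the nucleus in NIH-3T3. Over all genes the median difference of this ratio was -1.08.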

How the results depend on the processing

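Of the counts and medians recomputed under the alternatives, 248 stayed within their limits and 70 moved. Centred tables gave, for members longer and shorter in K562, 18 and 6 in the whole cell (18.2% and 26.3% of all genes). In the cytoplasm they gave 6 and 2 (9.84% and 14.0%), and at export 17 and 1 (9.95% and 15.3%). On chromatin 6 were longer (25.8%), and in the nuclear over cytoplasmic ratio 6 were higher (15.5%) and 9 lower (14.5%). Under centring the cytoplasmic log2 difference turned to -0.22 for KPNA6, -0.31 for NUP153, -0.40 for XPO6 and -0.22 for XPO7. The whole-cell difference turned to -0.34 for IPO4, -0.12 for IPO5, -0.077 for KPNA3, -0.43 for NUP205, -0.21 for NUP93, -0.13 for RANBP1, -0.082 for RANBP10, -0.32 for TPR, -0.029 for XPO1 and -0.12 for XPOT. Posterior means gave 7 longer and 4 shorter in the nucleus (1619 and 1551 of 9466 genes). They gave 12 longer for export (646 of 9135 genes) and 5 lower in the chromatin over export ratio (260 of 9135 genes). They turned NUP205 on chromatin to 0.74 and IPO5 in the nucleus to 1.31, where replicate 1 of K562 lists means outside the authors' intervals. Narrow intervals gave 10 longer for export (626 of 6643 genes) and 26 lower in the chromatin over export ratio (1104 of 6633 genes). They left 7 of 7 members in K562 (68.5% of all genes) with the cytoplasmic step longer than polysome loading. In NIH-3T3 they left 28 of 30 (74.9% of all genes). The trend gave 1 longer on chromatin (1064 of 9380 genes) and 5 for export (484 of 9135 genes). The replicate block gave 2 longer on chromatin (1279 of 9380 genes) and 16 longer for export (948 of 9135 genes). In the nucleus it gave 5 longer and 4 shorter (1146 and 1190 of 9466 genes). The tables of a block share only a number.

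Leaving out 1 table gave 0 to 6 shorter on chromatin, 0 to 0 longer and 0 to 0 shorter in the nucleus, 0 to 0 longer for export, 0 to 19 longer in the cytoplasm and 0 to 37 longer in the whole cell. It gave 0 to 16 lower in the nuclear over cytoplasmic ratio, 0 to 37 lower in the chromatin over export ratio, and 0 to 3 members with export the longer step in NIH-3T3. The limma fits without 1 table keep a single table in 1 line, so their counts cannot decide whether the calls hold. Those counts are not set against the shares of all genes, and no conclusion about members is drawn from them. Modes at least 2-fold apart gave 12 and 9 for nuclear against cytoplasmic in K562 (18.6% and 17.4% of all genes). For chromatin against export they gave 5 and 8 in K562 (21.8% and 8.86%), and 23 with chromatin longer in NIH-3T3 (19.8%). Without the degradation calls 0 members in NIH-3T3 had the cytoplasm longer, where 3.01% of all genes did. Median cytoplasmic half-lives were 105 to 110 min in K562 and 34 to 34 min in NIH-3T3 in single tables; in NIH-3T3 they were 32.3 min from means, 32.5 min with narrow intervals and 33.2 min without members by name only. Polysome medians in NIH-3T3 were 5.60 min from means and 6.4 to 6.5 min in single tables, and whole-cell medians 135 to 140 min in single tables and 140 min without members by name only. The cause of these changes was not tested. Read depth is unknown, and polysome values lie mostly below the first labelling time.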
